A study of Rattus norvegicus with 19 samples.

Results

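Hedgehog pathway genes were followed across rat Leydig cells of 4 stages and bone stem cells. The genes were chosen by name, from a list of 9: the ligand gene Dhh, the receptor Ptch1, the coreceptors Boc and Gas1, the ligand-binding antagonist Hhip, the signal transducer Smo and the transcription factors Gli1, Gli2 and Gli3. A gene was measured through the probe sets (groups of short probes against 1 transcript) that carry its symbol and no other in the platform annotation. On that rule 7 of the 9 genes were measured, by 8 probe sets out of 31042 and as 7 of 14217 named genes, with 2 probe sets for Smo and 1 for each of the other 6. No probe set carried Gli3 or Ptch1 as its single symbol, and these 2 genes were not analysed here.

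All cells came from Sprague-Dawley rats, and the labels name no further genotype, treatment or agent. The 4 Leydig groups are stem Leydig cells (5 arrays), progenitor Leydig cells (3 arrays), immature Leydig cells (4 arrays) and adult Leydig cells (4 arrays), and 3 arrays of bone stem cells stand outside the testis. The sources used here do not give the age of the animals, the isolation of the cells or any culture. They also do not say that replicates came from separate animals, so the p-values reflect the spread between these arrays, part of which may be technical. Each value is a MAS5 signal, a linear intensity with 1 number per probe set and array, and each change is a difference of group means of log2(signal + 16), which understates the change of low signals.

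In the testis, desert hedgehog, the product of Dhh, is secreted by Sertoli cells and also made by Schwann and endothelial cells, and it acts on the interstitial cells from which Leydig cells arise. Ligand bound to Ptch1 and its coreceptors relieves the block on Smo at the primary cilium, and active Smo turns the Gli proteins into activators of transcription. Gli1, Ptch1 and Hhip are themselves direct targets of the pathway, so their RNA is widely used as a readout of signalling, and loss of Dhh impairs the formation of fetal and adult Leydig cells.

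Gli proteins bind DNA at the consensus GACCACCCA. The 250 bases before the annotated start were searched on both strands for this consensus, for its inner part ACCACCC and for the core CCACCC, each of which contains the next. Of the 9 genes, 7 had a window in the RefSeq promoter table (build GRCr8), and Gli1 and Gas1 had none. The windows of Gli2, Smo and Hhip are printed because these 3 genes were higher together in progenitor than in stem Leydig cells. Each runs 5′ to 3′ on the strand of the gene, and capitals mark the matches: the inner part in Gli2 and the core in Smo and Hhip.
Gli2: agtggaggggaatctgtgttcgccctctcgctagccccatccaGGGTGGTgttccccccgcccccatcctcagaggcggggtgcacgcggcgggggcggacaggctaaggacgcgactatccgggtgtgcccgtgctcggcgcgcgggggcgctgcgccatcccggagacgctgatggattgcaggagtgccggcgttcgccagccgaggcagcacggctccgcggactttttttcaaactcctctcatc
Smo: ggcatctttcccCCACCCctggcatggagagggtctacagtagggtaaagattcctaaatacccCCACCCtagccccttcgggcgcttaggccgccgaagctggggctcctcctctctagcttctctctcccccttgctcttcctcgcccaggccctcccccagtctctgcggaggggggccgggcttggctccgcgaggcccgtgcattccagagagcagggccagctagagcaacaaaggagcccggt
Hhip: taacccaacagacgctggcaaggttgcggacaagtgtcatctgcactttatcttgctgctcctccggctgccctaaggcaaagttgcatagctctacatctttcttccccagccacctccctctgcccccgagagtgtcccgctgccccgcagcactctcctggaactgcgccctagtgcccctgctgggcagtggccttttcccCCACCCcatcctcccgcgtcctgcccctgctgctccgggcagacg

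The Gli2 window is chr13:32716419-32716668 on the minus strand, the Smo window chr4:59310834-59311083 on the plus strand and the Hhip window chr19:44767788-44768037 on the plus strand. The single Gli2 match begins 207 bases before the start, the Smo matches lie 238 and 186 bases before it, and the Hhip match lies 45 bases before it. The core was in 6 of the 7 windows (Boc held none) and in 26.1% of all 33469 windows of the same length. The inner part was in the Gli2 and Ptch1 windows and in 3.81% of all windows. The full consensus was in the Ptch1 window alone among the 7, and in 113 of the 33469 windows (0.338%). These are matches of letters and not measured binding sites.

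The genes fell into different windows along the stages. Gli1 was low in stem Leydig cells, high in progenitor and immature cells and low again in adult cells. Gli2 peaked over the same middle stages and Smo in progenitor cells, each from a level already present in stem cells. Hhip was above a signal of 16 in progenitor cells and on 1 immature array only. Boc showed no called change from stem to immature cells and was low in adult cells. Dhh and Gas1 had the highest means in adult cells, at low signals. In limma's F-test over the 4 Leydig stages, 6 of the 7 measured genes passed (adjusted p under 0.05), and Dhh did not (adjusted p = 0.115). Of all 14217 genes, 63.8% passed the same test, so a pass by itself does not set these genes apart.

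**Figure D1:**
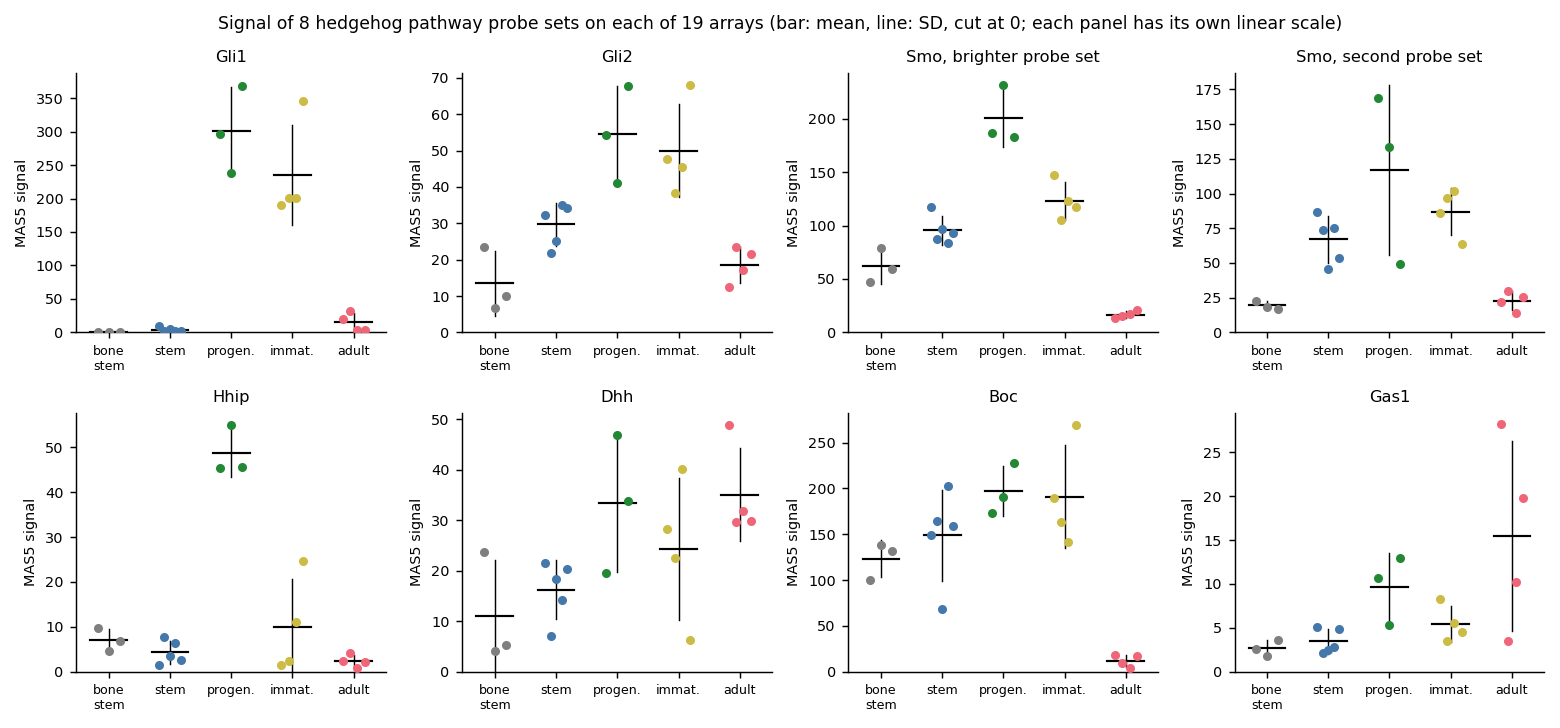
Signal of the 8 probe sets (y axes, deposited linear signal) on each of the 19 arrays by group (x axes), with points for arrays and lines for group means ± SD cut at 0. Gli1 lies between 191.0 and 368.8 on every progenitor and immature array and at 32.4 or less on every other array.

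The libraries had common features that bear on these values. The deposited signals were already scaled, with a 2% trimmed mean of 100 on every array, and 29.1% to 47.3% of probe sets lay under 16 on an array. Progenitor replicate 3 stood apart by its actin 3′ to 5′ ratio, a measure of RNA integrity, of 6.35 against 1.03 to 2.95 on the other 18 arrays, and bone stem arrays (2.38 to 2.95) lay above stem Leydig arrays (1.03 to 1.84). Immature replicate 4 correlated with the progenitor arrays (mean Pearson r 0.972) more than with the other immature arrays (0.959). The labels were checked on marker lists. The summed signal of 7 Leydig markers was 354 to 1586 on stem Leydig arrays, where Cyp17a1 and Lhcgr were under 16, 11938 to 22618 on progenitor and immature arrays, and 20480 to 31591 on adult arrays. Of 6 measured osteoblast markers, 4 were called higher in bone stem than in stem Leydig cells and 0 lower in limma, with sums of 3985 to 4573 against 1534 to 2421, mostly as Spp1. Alpl and Ibsp, under 16 on every stem Leydig array, were at 149 and 155 in bone stem cells, while Bglap, Dmp1 and Phex were under 16 on every bone stem array. The myeloid genes Cd68 and Tyrobp were at 2094 and 1992 there. All samples are bulk RNA, in which fewer cells of a type and less RNA per cell cannot be told apart.

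Dhh, the ligand gene, varied widely within each group. It was 16.3 ± 5.88 (SD, n = 5) in stem Leydig cells, 33.4 ± 13.7 (n = 3) in progenitor cells, 24.3 ± 14.1 (n = 4) in immature cells, 35.1 ± 9.25 (n = 4) in adult cells and 11.0 ± 11.1 (n = 3) in bone stem cells. Single arrays ran from 7.0 to 21.5 in stem, 19.5 to 46.9 in progenitor, 6.2 to 40.1 in immature, 29.7 to 48.9 in adult and 4.0 to 23.8 in bone stem. No 2 neighbours in the order of these means differed past the threshold (limma adjusted p from 0.453 to 0.911). The adult and stem ranges did not overlap, and the difference of 0.67 ± 0.26 (SE, log2) passed with an adjusted p of 0.0424, a call that was lost in 9 of 32 alternative analyses (adjusted p from 0.00712 to 0.136). Adult and progenitor cells were also above bone stem cells, by 0.98 ± 0.29 (adjusted p = 0.01) and 0.91 ± 0.31 (adjusted p = 0.0266).

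Cell types known to make Dhh were followed by marker lists beside it. The 8 measured Sertoli markers of 10 summed to 553 to 809 on stem Leydig arrays and to 2271 to 3465 on adult arrays, mainly through Cldn11 and Inha, while Amh, Gata1 and Dmrt1 were under 16 on every adult and every stem array. Of these 8, 3 were called higher and 0 lower in adult than in stem cells (median 0.18). The 9 measured endothelial markers of 10 summed to 253 to 436 in stem cells and to 581 to 3000 in adult cells, where 8 of the 9 were called higher. The 5 measured Schwann markers of 8 summed to 980 to 1450 and 2858 to 3274, with 2 called higher and 1 lower (median 0.24) and Mbp and Ngfr under 16 on every adult array. Germ cell markers, 7 of 9 measured, were all called higher in adult than in stem cells and summed to 32.2 to 40.9 and 1331 to 3104. The part of all these cells in the Dhh difference was not tested. Shh and Ihh, the genes of the other hedgehog ligands, did not pass the F-test over the Leydig stages (adjusted p = 0.752 and 0.739), and Shh was under 16 on all 19 arrays.

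Boc, a cell-surface coreceptor that binds hedgehog ligand, was low in adult cells alone. Its signal was 149.4, 164.0, 68.2, 202.7 and 159.5 on the stem arrays, 173.5, 190.9 and 227.4 on the progenitor arrays and 189.4, 163.0, 141.1 and 269.5 on the immature arrays. It was 17.7, 9.5, 3.6 and 16.7 on the adult arrays and 100.4, 138.5 and 131.3 on the bone stem arrays. All 4 adult arrays lay below all 15 others. The fall from immature to adult cells was -2.89 ± 0.25 (limma, adjusted p = 5.8e-08). Adult minus stem was -2.53 ± 0.23 (adjusted p = 1.35e-08) and adult minus bone stem -2.34 ± 0.26 (adjusted p = 3.26e-07). The other differences did not pass: progenitor minus stem was 0.43 ± 0.25 (adjusted p = 0.203), immature minus progenitor -0.07 ± 0.26 (0.964) and stem minus bone stem 0.18 ± 0.25 (0.723).

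Of the 9 mesenchymal and fibroblast markers, 5 fell and none rose from immature to adult cells, the step at which Boc fell. The 9 summed to 7623 to 13012 on immature arrays and to 4610 to 5498 on adult arrays. Between adult and stem cells 3 of these markers were higher and 6 lower. From stem to progenitor cells, where Boc showed no called change, 3 of these markers rose and 4 fell. Their part in the Boc difference was not tested. Gas1, a membrane-anchored coreceptor, reached 16 on only 2 of the 19 arrays, both adult. It read 28.2, 3.5, 10.2 and 19.8 on the adult arrays, 2.1 to 5.1 in stem, 5.3 to 12.9 in progenitor, 3.5 to 8.3 in immature and 1.8 to 3.6 in bone stem cells. The adult mean was higher than the stem mean by 0.63 ± 0.17 (limma adjusted p = 0.00416), although 1 adult array lay inside the stem range. The 7 measured germ cell markers, all 7 Leydig markers and 8 of 9 endothelial markers were also called higher between these groups. So were 27.6% of all genes. From progenitor to immature cells 5 of the germ cell markers rose, while the Gas1 change did not pass (-0.25 ± 0.19, adjusted p = 0.686). The part of these cells in the Gas1 difference was not tested. At these signals the order of the groups rests on a pair of arrays.

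Hhip, the secreted and membrane-bound protein that sequesters ligand and is itself a pathway target, marked the progenitor group. Its signal was 45.5, 55.0 and 45.7 in progenitor cells and 1.5, 7.7, 3.5, 6.3 and 2.7 in stem cells. It was 1.6, 2.3, 11.1 and 24.7 in immature cells, 2.3, 4.1, 0.9 and 2.1 in adult cells and 9.7, 4.5 and 6.8 in bone stem cells. Every progenitor array was above all 16 others, and apart from immature replicate 4 no other array reached 16. Hhip rose by 1.68 ± 0.20 from stem to progenitor cells (limma, adjusted p = 9.99e-07) and fell by 1.40 from progenitor to immature cells (SE 0.21, adjusted p = 0.00103). Without immature replicate 4 the fall was -1.65 (adjusted p = 5.02e-06), and when only the progenitor and immature arrays entered the fit its adjusted p was 0.158. The later step from immature to adult did not pass (-0.42 ± 0.19, adjusted p = 0.144), and the order of immature, bone stem, stem and adult means held no difference past the threshold. Of 9 endothelial markers, 7 also rose at the progenitor step and 2 fell at the immature step (medians 1.90 and -1.13). The 9 summed to 253 to 436 on stem, 973 to 1939 on progenitor and 278 to 824 on immature arrays. Unlike Hhip, 7 of the 9 then rose from immature to adult cells (median 1.24), with sums of 581 to 3000 on adult arrays. Their part in the Hhip result was not tested.

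Smo, the transmembrane protein that carries the signal once Ptch1 is bound, was present in stem Leydig cells, higher in progenitor cells and low in adult cells. Its brighter probe set read 117.1, 87.0, 96.4, 83.4 and 92.9 in stem cells, 186.8, 231.6 and 182.7 in progenitor cells and 147.3, 104.9, 123.0 and 117.0 in immature cells. It read 13.3, 15.6, 16.9 and 20.6 in adult cells and 46.8, 78.6 and 59.6 in bone stem cells. The progenitor arrays were the highest 3 and the adult arrays the lowest 4 of the 19. Smo rose by 0.96 ± 0.15 from stem to progenitor cells (limma, adjusted p = 3.26e-05) and fell by 2.09 from immature to adult cells (SE 0.15, adjusted p = 5.33e-09). Adult minus stem was -1.77 ± 0.14 (adjusted p = 1.12e-09) and adult minus bone stem -1.24 ± 0.16 (adjusted p = 1.64e-06).

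The smaller Smo differences were less firm. The step from progenitor to immature cells, -0.64 ± 0.16, had a limma adjusted p of 0.0485 and was not called in 23 of 32 alternatives (adjusted p from 0.0098 to 0.252). Stem Leydig cells exceeded bone stem cells by 0.53 ± 0.15 (adjusted p = 0.0162), a call lost in 6 of 32 alternatives. Immature and stem Leydig cells overlapped, and their difference did not pass (0.32 ± 0.14, adjusted p = 0.0742). The dimmer Smo probe set read 86.9, 73.6, 45.6, 75.4 and 53.7 in stem, 168.6, 133.6 and 49.5 in progenitor, 85.9, 96.6, 102.2 and 63.6 in immature, 21.6, 29.9, 13.9 and 25.8 in adult and 22.8, 18.5 and 16.9 in bone stem cells. It fell at the adult step as well (-1.41 ± 0.25, adjusted p = 0.000315). Adult and bone stem cells overlapped on this probe set and did not differ past the threshold (0.12 ± 0.27, adjusted p = 0.773). Immature minus progenitor did not pass on it either (-0.26 ± 0.27, adjusted p = 0.804). The rise from stem to progenitor cells did not pass on it (0.58 ± 0.26, adjusted p = 0.0887), where progenitor replicate 3, the array with the high actin ratio, lay inside the stem range.

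Gli2, the factor that relays most of the initial activation by Smo, followed a shallower course. Its signal was 32.2, 21.9, 25.1, 34.9 and 34.3 in stem cells, 54.4, 41.2 and 67.9 in progenitor cells and 47.7, 38.2, 45.6 and 68.1 in immature cells. It was 12.4, 23.5, 17.1 and 21.5 in adult cells and 23.6, 6.7 and 10.1 in bone stem cells. The progenitor and immature arrays lay above all the others. Gli2 fell by 0.92 from immature to adult cells (SE 0.19, limma adjusted p = 0.00155). The rise from stem to progenitor cells was 0.62 ± 0.20 (adjusted p = 0.0193), and it was not called in 6 of 32 alternatives, among them quantile normalization (0.41, adjusted p = 0.116), median centring (0.39, adjusted p = 0.116), without progenitor replicate 1 (adjusted p = 0.0527) or without progenitor replicate 3 (0.48, adjusted p = 0.114). Stem Leydig cells were above bone stem cells by 0.66 ± 0.20 (adjusted p = 0.0235), a call lost in 8 of 32 alternatives. Adult and stem ranges overlapped (-0.40 ± 0.18, adjusted p = 0.0886).

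Gli1, the amplifying activator whose own transcription depends on the pathway, showed the sharpest window. It read 10, 2.6, 5.1, 1.5 and 1.4 on the stem arrays, 297.0, 237.9 and 368.8 on the progenitor arrays and 191.0, 201.4, 200.1 and 346.2 on the immature arrays. It read 20.5, 32.4, 3.7 and 4.2 on the adult arrays and 1.3, 0.9 and 0.9 on the bone stem arrays. The lowest of the 7 progenitor and immature arrays was thus above the highest of the 12 others, and adult replicates 1 and 2 were the only others at 16 or more. Group means were 4.1 ± 3.62 in stem cells, 301 ± 65.5 in progenitor, 235 ± 74.5 in immature, 15.2 ± 13.9 in adult and 1.06 ± 0.22 in bone stem cells.

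Gli1 rose by 3.98 ± 0.26 from stem to progenitor cells (limma, adjusted p = 1.89e-10), which is 15.7-fold on the signal + 16 scale. Leaving out each array in turn gave 3.83 to 4.13. Progenitor and immature cells overlapped and did not differ past the threshold (-0.36 ± 0.28, adjusted p = 0.693). Gli1 then fell by 3.07 to adult cells (SE 0.25, adjusted p = 4.33e-08), an 8.41-fold difference on the same scale. Without immature replicate 4, which had the highest Gli1 of its group, this fall was -2.88 (adjusted p = 2.45e-07). Adult and stem cells overlapped (0.54 ± 0.24, adjusted p = 0.0798), and stem and bone stem cells, both under 16 on every array, differed by 0.22 ± 0.26 (adjusted p = 0.672).

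**Figure D2:**
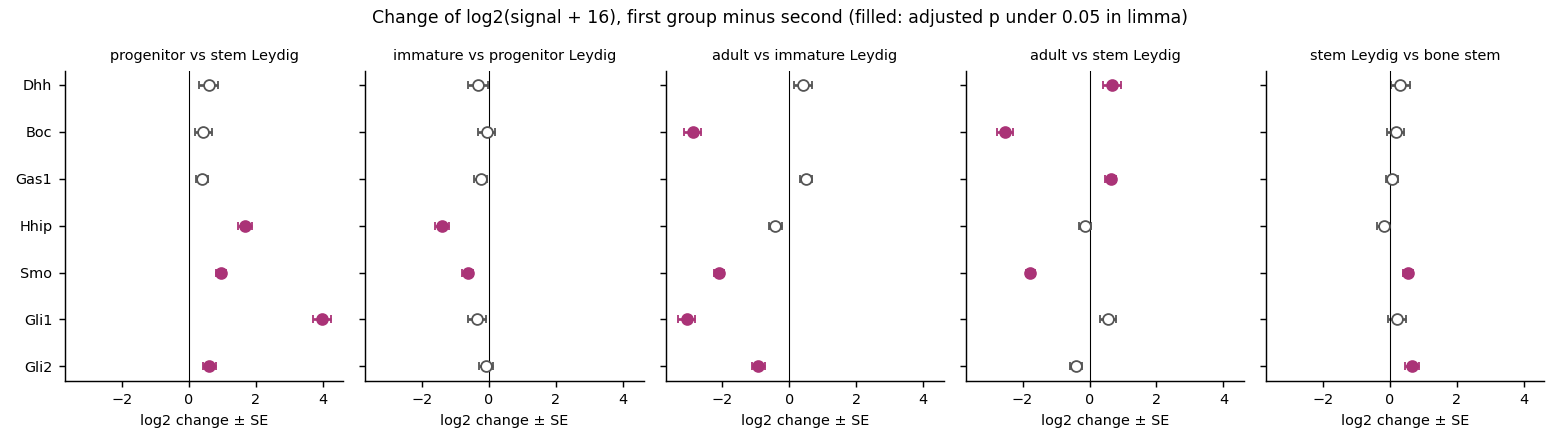
Change of the 7 measured genes (rows, brightest probe set of each) in the 5 comparisons (panels), as the log2 difference of group means of signal + 16 (x axes), with bars of ± 1 SE and filled points where the limma adjusted p was under 0.05. From stem to progenitor cells Gli1 (3.98) and Hhip (1.68) lie farthest to the right, and from immature to adult cells Gli1 (-3.07), Boc (-2.89) and Smo (-2.09) lie farthest to the left.

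Set side by side, the steps moved different subsets of the genes. From stem to progenitor cells Gli1, Gli2, Smo and Hhip rose, 4 of 7, and none fell, where 26.7% of all genes rose and 18.5% fell. The median change was 0.62 over the 7 genes and 0.08 over all genes. From progenitor to immature cells none rose and Hhip and Smo fell, 2 of 7, where 1.33% of all genes rose and 0.598% fell (medians -0.33 and -0.00). From immature to adult cells none rose and Gli1, Gli2, Smo and Boc fell, 4 of 7, where 12% of all genes rose and 17.2% fell (medians -0.92 and -0.06). These steps share groups, so a high or low array counts in more than 1 of them. At an unadjusted limma p under 0.05, 6 of the 7 were higher and 0 lower at the progenitor step (Dhh and Gas1 joining), where 30.9% of all genes were higher and 21.3% lower by the same rule. At the immature step 0 were higher and 2 lower, against 7.78% and 7.55% of all genes, and at the adult step 1 was higher (Gas1) and 5 lower (Hhip joining), against 16.3% and 23.9%.

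Over the whole span from stem to adult cells the genes split. Dhh and Gas1 were higher and Smo and Boc lower in adult cells, 2 and 2 of 7, where 27.6% of all genes were higher and 25.9% lower, so these counts are near those of all genes. Between the stem cell groups, Gli2 and Smo were higher in stem Leydig than in bone stem cells and none was lower, where 9.76% of all genes were higher and 14.1% lower (medians 0.22 and 0.00). At an unadjusted p under 0.05 the counts were again 2 and 0, against 15.1% and 19.9% of all genes. The balance of higher and lower calls over all genes depends on the scaling: 59.2% of the genes called between progenitor and stem cells were higher as reported, 52.3% after quantile normalization and 38.2% after median centring. For adult against immature cells the same shares were 41.0%, 47.8% and 64.3%, and for stem Leydig against bone stem cells 40.9%, 39.6% and 30.5%.

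The rest of the pathway was read from 6 lists of 58 genes, of which 46 were measured, each counted on its brightest probe set. Another probe set was present for 20 of the 46. From stem to progenitor cells 16 rose and 7 fell, from progenitor to immature cells 0 rose and 2 fell, and from immature to adult cells 3 rose and 15 fell. The median changes were 0.15, -0.03 and -0.25. Between adult and stem cells 12 were higher and 15 lower, and between stem Leydig and bone stem cells 11 were higher and 2 lower. Over all genes 26.7% rose and 18.5% fell at the progenitor step, 1.33% and 0.598% at the immature step, and 12% and 17.2% at the adult step. Between adult and stem cells 27.6% of all genes were higher and 25.9% lower. Between stem Leydig and bone stem cells these shares were 9.76% and 14.1%. The counts by list that follow are to be read beside the same shares.

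Among genes for ligands and their release, 5 of 8 were measured, and only Gpc3 changed between stem and progenitor cells. Gpc3, a glypican that competes with Ptch1 for ligand at the cell surface, was 3.74 ± 3.91 (n = 5) in stem cells, 225 ± 69.9 (n = 3) in progenitor cells, 73.4 ± 118 (n = 4) in immature cells and 8.93 ± 5.01 (n = 4) in adult cells. It rose by 3.58 ± 0.51 at the progenitor step (limma, adjusted p = 9.51e-06), while another Gpc3 probe set did not show it (-0.24, adjusted p = 0.227). On the brighter probe set the immature arrays read 24.8, 4.3, 14.7 and 250, so only immature replicate 4 reached the progenitor range of 144.0 to 266.0, and the fall from progenitor to immature cells had an adjusted p of 0.0441 (-2.19 ± 0.53). The other probe set differed by 0.26 there (adjusted p = 0.55). Of the other receptors and coreceptors 2 of 3 were measured, and Cdon, a relative of Boc named after its values were seen, rose by 1.06 ± 0.21 to progenitor cells (adjusted p = 0.000411) and fell by 0.64 to adult cells (SE 0.20, adjusted p = 0.0282).

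All 12 negative intracellular regulators were measured, and at the progenitor step Prkaca and Prkar1a rose and Tulp3 and Rab23 fell on their brightest probe sets. Another Prkar1a probe set was called in the opposite direction (-0.76 against 0.65). Tulp3, which brings Gpr161 to the cilium, fell from 412 ± 42.7 in stem cells to 209 ± 12 in progenitor cells (-0.92 ± 0.12, limma adjusted p = 4.44e-06) and was 225 ± 25.5 in adult cells. Another Tulp3 probe set did not show the fall (0.27, adjusted p = 0.178). Gpr161, a ciliary receptor that keeps protein kinase A active against the pathway, was 112 ± 32.7 in stem cells, 148 ± 50.6 in progenitor cells, 104 ± 45.2 in immature cells and 14.0 ± 14.6 in adult cells, and its fall at the adult step was -2.06 ± 0.30 (adjusted p = 4.78e-05). Thus a negative regulator fell at the same step as Smo and Gli1. At that step Prkaca, the catalytic subunit gene of protein kinase A, rose by 0.83 ± 0.24 (adjusted p = 0.0184), and Kif7 and Prkacb fell beside Gpr161, Prkacb on its brightest probe set alone of 3.

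Of 5 measured positive regulators, 4 rose from stem to progenitor cells (Arrb2, Dzip1, Evc and Grk2) and 3 fell from immature to adult cells (all of these but Dzip1), with none in the opposite directions. Arrb2, an arrestin that helps move Smo into the cilium, was 13.3 ± 6.07 in stem cells, 153 ± 10.6 in progenitor, 106 ± 18.5 in immature, 48.3 ± 10 in adult and 118 ± 54.5 in bone stem cells. Its rise was 2.55 ± 0.21 (limma, adjusted p = 4.23e-09) and its fall -0.92 ± 0.20 (adjusted p = 0.00208). Evc, part of a complex at the base of the cilium that acts below Smo, rose by 0.81 ± 0.18 (adjusted p = 0.00121) and fell by 0.54 (SE 0.18, adjusted p = 0.0316).

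Genes of the primary cilium did not move as a block. Of 13 measured genes 5 rose (Dync2h1, Ift122, Ift172, Mks1 and Tctn1) and 2 fell (Ift81 and Kif3a) at the progenitor step, none changed from progenitor to immature cells, and Ift81, Ift88 and Kif3a fell at the adult step. The Mks1 rise passed on another probe set (0.54, limma adjusted p = 0.0414) but not on a further one (0.18, adjusted p = 0.475). The Ift81 fall at the progenitor step was not seen on its other probe sets (0.28 and 0.42, adjusted p = 0.195 and 0.126), nor the Tctn1 rise on its other one (0.16, adjusted p = 0.515). At the adult step the Ift81 fall did not pass on these other probe sets (-0.31 and -0.19, adjusted p = 0.19 and 0.595). Nor did the Kif3a fall on its other one (-0.38, adjusted p = 0.228). Ift122, a retrograde transport subunit, rose by 1.11 ± 0.14 at the progenitor step (limma, adjusted p = 1.58e-06) and read 173 ± 7.02 in adult cells against 62.9 ± 13.1 in stem cells, but its other probe set did not pass at this step (0.18, adjusted p = 0.376). Kif3a, a motor subunit needed to build the cilium, went the other way, from 123 ± 9.84 in stem to 48.6 ± 11.1 in progenitor cells (-1.11 ± 0.14, adjusted p = 3.25e-06) and 36.2 ± 3.69 in adult cells.

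Of 9 measured genes reported elsewhere as hedgehog targets, 3 rose and 3 fell at the progenitor step, and 2 rose and 5 fell at the adult step. Sfrp1, which encodes a secreted Wnt antagonist, was 105 ± 47.3 in stem cells, 964 ± 355 in progenitor, 700 ± 181 in immature, 90.7 ± 22.0 in adult and 87.0 ± 24.5 in bone stem cells. Its progenitor and immature arrays (561.1 to 1229.1) were all above the others (53.8 to 175.6), with changes of 3.03 ± 0.29 (limma, adjusted p = 3.6e-08) and -2.74 ± 0.28 (adjusted p = 4.87e-07) at the steps into and out of these stages. Bmp4, a morphogen gene, and Mycn, a growth regulator, were named after their values were seen. Bmp4 rose by 1.49 ± 0.21 and then fell by 1.25 (SE 0.20), and Mycn rose by 1.17 ± 0.23 and fell by 1.12 (SE 0.22), all with adjusted p of 0.000806 or less. Ccnd1, the cyclin gene, did the opposite of Sfrp1, at 1084 ± 298 in stem cells, 54.2 ± 16.3 in progenitor cells, 38.5 ± 4.28 in immature cells and 141 ± 33.2 in adult cells. Ccnd2, another cyclin gene, and the forkhead gene Foxf1 fell with it at the progenitor step, and Foxf1 rose with it at the adult step, although neither Foxf1 change passed on its other probe set (-0.40 and 0.10, adjusted p = 0.164 and 0.8).

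**Figure D3:**
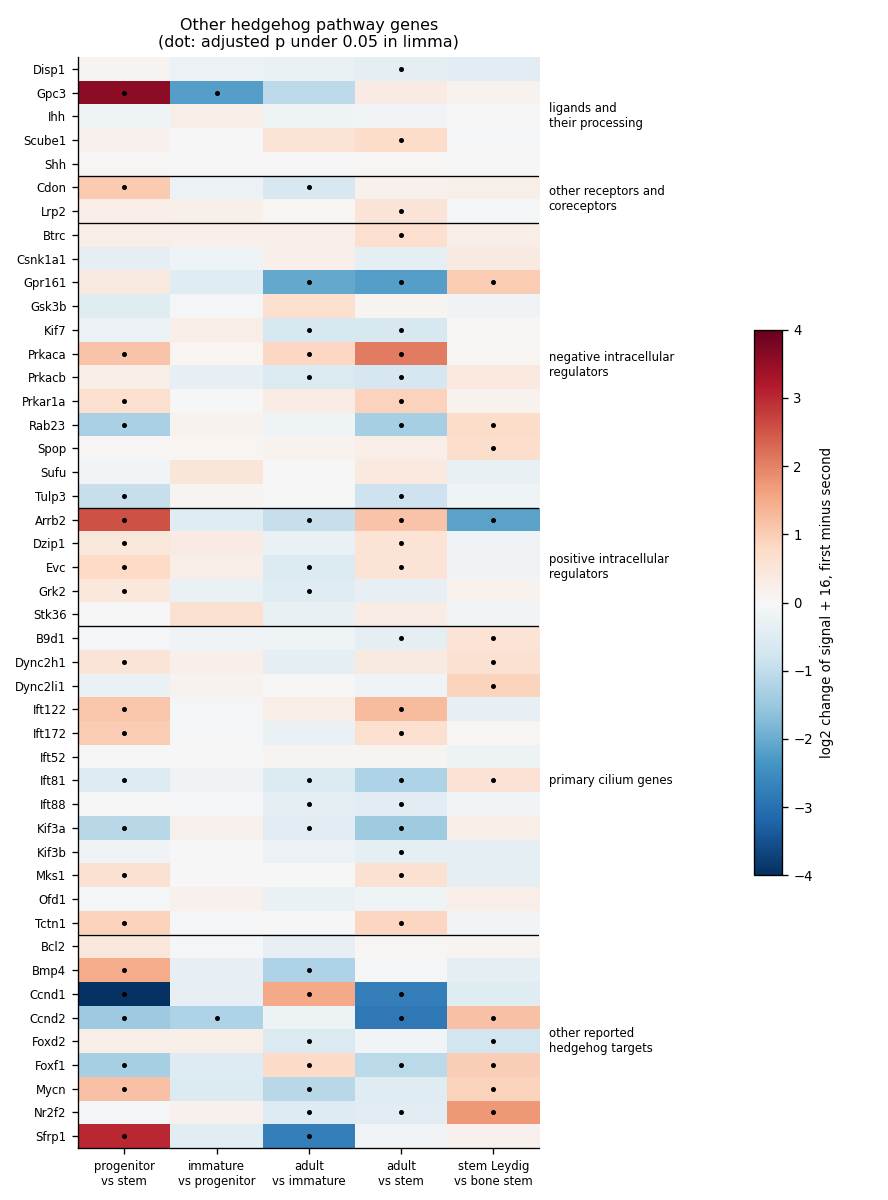
Change of the measured genes of the 6 other pathway lists (rows, grouped by list) in the 5 comparisons (columns), as the log2 difference of group means of signal + 16, with colour for direction and size and a dot where the limma adjusted p was under 0.05. The columns for progenitor against stem and adult against immature cells hold 16 higher with 7 lower and 3 higher with 15 lower called genes of 46.

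The genes whose course over the arrays was most like that of each hedgehog gene were listed by Pearson r of log2(signal + 16) over all 19 arrays, among 9661 genes with a mean of at least 50 in some group. The arrays share their groups, so r mainly reflects differences between groups and is a description. Hhip, Dhh and Gas1 lay under that level. Within the pathway r was 0.804 between Gli1 and Gli2, 0.603 between Gli1 and Smo, 0.428 between Gli1 and Boc, 0.681 between Gli2 and Smo, 0.556 between Gli2 and Boc and 0.893 between Smo and Boc.

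The 5 genes most like Gli1 were Klrb1a (0.989), Il2rb (0.987), Zap70 (0.987), Cd7 (0.986) and Alas2 (0.986). The first 4 are genes of natural killer and T lymphocytes, and Alas2 encodes the haem synthesis enzyme of erythroid cells. Klrb1a was 3.61 ± 2.42 in stem cells, 423 ± 58.2 in progenitor, 259 ± 146 in immature, 17.2 ± 15.5 in adult and 5.28 ± 1.65 in bone stem cells. On the adult arrays it read 22.9, 36.5, 4.0 and 5.4, against 20.5, 32.4, 3.7 and 4.2 for Gli1, so the same adult replicates 1 and 2 were high. Immature replicate 4 was the highest immature array for Klrb1a (465.7) and for Gli1 (346.2). Progenitor replicate 3 was the highest progenitor array for both.

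**Figure D4:**
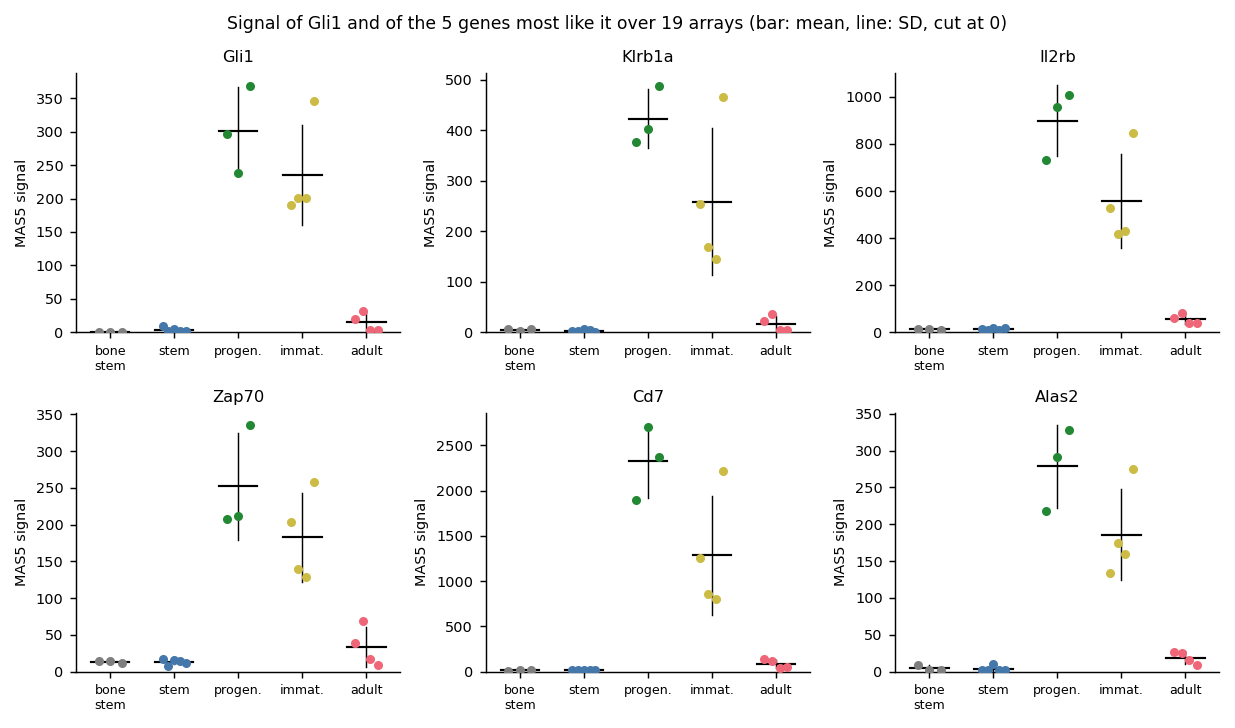
Signal of Gli1 and of the 5 genes with the highest Pearson r to it (y axes, linear scale) on each of the 19 arrays by group (x axes). In each panel adult replicates 1 and 2 lie above adult replicates 3 and 4, as Gli1 does at 20.5 and 32.4 against 3.7 and 4.2.

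Several blood cell markers moved at the same steps as Gli1. In limma the 4 measured erythroid markers of 7 all rose at the progenitor step and 3 fell at the adult step. Of these 4, Epb42 was under 16 on all 19 arrays and Slc4a1 on every adult and bone stem array. Of the 9 leukocyte markers, 6 rose and 1 fell at the progenitor step and 1 rose and 4 fell at the adult step, and 7 were higher in adult than in stem cells, a difference that Gli1 did not pass. The erythroid markers summed to 14.2 to 29.4 on stem, 3356 to 5125 on progenitor, 2437 to 5223 on immature, 278 to 707 on adult and 16.2 to 36.2 on bone stem arrays, mostly as Hbb, a haemoglobin gene. The 9 leukocyte markers summed to 229 to 276, 1916 to 2300, 1008 to 2129, 333 to 823 and 7017 to 9695 in the same order. The T cell gene Cd3e and the B cell gene Cd79b were under 16 on every stem Leydig and bone stem array, so the high leukocyte sum of bone stem cells came from other markers of the list, and Gli1 was 0.9 to 1.3 there. The part of blood cells in the Gli1 result was not tested.

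For the other genes the closest courses were those of different cell functions. Gli2 was most like Stmn2 (0.919), Thrap3 (0.916), Lmnb1 (0.912), Dpep1 (0.912) and Pknox2 (0.910). Smo was most like Tcaf1 (0.936), Bmp1 (0.919), Hnrnpa2b1 (0.913), Pcnx4 (0.911) and Sh3bp1 (0.908), although another probe set of Tcaf1 and one of Hnrnpa2b1 were called in the opposite direction between adult and stem cells. Boc was most like Dnmbp (0.952), Lamb1 (0.948), Col6a1 (0.947), Nid1 (0.946) and Glis2 (0.945), of which Lamb1, Col6a1 and Nid1 encode proteins of the extracellular matrix and basement membrane. On another probe set the fall from immature to adult cells did not pass for Nid1 (-0.70, limma adjusted p = 0.152) or Glis2 (-0.41, adjusted p = 0.155). Adult minus stem passed there for Nid1 (-1.27, adjusted p = 0.00223) and not for Glis2 (-0.04, adjusted p = 0.88).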

How the data were processed

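RNA of 19 samples was read on 1 Affymetrix array each. Per the labels' protocols, RNA was isolated with Trizol and a column, and 6 ug was labelled. The deposited numbers are signal intensities, made by the authors with MAS5 in GCOS (no versions given) per the submitters' processing notes, and already scaled to a 2% trimmed mean of 100. Of 31099 probe sets, 57 controls were left out. Of the 31042 tested, 20826 carried 1 symbol, 436 several and 9780 none in the platform annotation, and 20758 of the single symbols were found in RefSeq. A gene was represented by its brightest probe set.

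Groups came from the labels. Changes were tested in limma 3.58.1 (R 4.3.3) on log2(signal + 16), with all 19 arrays and 5 group means in 1 fit, eBayes with an intensity trend, and Benjamini-Hochberg adjustment over the 31042 probe sets. The procedure was tested on simulated data. No detection calls were used, so a signal under 16 was treated as low. With 3 to 5 arrays a group, the number of arrays limits the precision. Alternatives covered scaling, pseudocount, filter, variance model, weights, probe sets, arrays left out and the replicate block.

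All members were named. Of each other list, the 2 genes with the smallest F-test p and a group mean of at least 50 were named, and for likeness the 5 genes with the highest r. The members and lists were chosen with earlier results of these data known. The replicate numbers did not pair the arrays.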

Additional observations from a re-analysis of the deposited data

Results flagged for a closer look

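Gli1 was 346.2 on immature replicate 4, far from the other immature arrays (191.0, 201.4 and 200.1), with a gap to the nearest of 0.91 of the range of the 4 arrays. Dhh was 48.9 on adult replicate 1, with a gap of 0.87 of the range of the 4 adult arrays. Of 24 groups of 4 or 5 arrays tested in this way, 2 were singled out, and chance alone singles out about 1 in 20.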

How the results depend on the processing

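The count of 4 hedgehog genes called between adult and immature cells stayed at 4 to 6 when each array was left out in turn, and the F-test count of 6 at 5 to 6. Of 1110 alternative values of single genes, 1033 kept their side of the threshold, 56 lost the call and 21 gained it. A call was reversed in 0 of them, and 5 of the 1033 changed sign with neither value called. The 4 genes called between progenitor and stem cells were 3 to 5 with an array left out and 2 with a 2-fold minimum, and the 4 called between adult and stem cells were 3 to 5 and 2. The 2 genes called between immature and progenitor cells (1 to 2 with an array left out) were 1 with median centring, quantile normalization, a pseudocount of 1, without the lowest 40% of probe sets, with the replicate block, the mean of probe sets, a 2-fold minimum, progenitor replicate 3 together with immature replicate 4 left out, or the closest pairs of arrays averaged. With only the groups compared in the limma fit they were 0, against 2 at an unadjusted p under 0.05. The 2 called between stem Leydig and bone stem cells were 1 with median centring, quantile normalization, a pseudocount of 64 or the closest pairs averaged, and 0 with the replicate block or a 2-fold minimum. With an array left out they were 0 to 2, with the 0 when bone stem replicate 3 was left out, where 2 passed an unadjusted p under 0.05, as they did with the block. Why these calls were lost was not tested.

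The replicate numbers are shared between groups but did not pair the arrays: residuals of same-numbered arrays correlated at a mean r of 0.017 (33 pairs) against -0.005 (110 pairs) for others, and 5 of 19 arrays were closest to their own number. With the replicate block, 5, 1, 5, 4 and 0 genes were called in the 5 comparisons in the order above (progenitor, immature and adult steps, adult against stem, stem Leydig against bone stem), and 6 in the F-test. Over all genes, the 274 called between immature and progenitor cells were 156 with a pseudocount of 1, 974 with array weights, 10 with only these groups, 896 without immature replicate 4, 820 with progenitor replicate 3 left out as well, 104 with the closest pairs averaged and 101 to 137 without progenitor replicate 1 or 2 or immature replicate 1, 2 or 3. The 3390 called between stem Leydig and bone stem cells were 6046 with array weights. Median centring moved the median change of all probe sets from 0.08 to -0.15 at the progenitor step and from -0.07 to 0.11 at the adult step. Low signal limits Hhip and Gas1, which reached 16 on 4 and 2 of 19 arrays, and Dhh, which stayed under 50 on every array.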
